A study of Mus musculus with 2 samples.

Results

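The genes described here are 4 genes of the extracellular matrix, *Tnc* (tenascin-C), *Tnxb* (tenascin-X), *Coch* (cochlin) and *Postn* (periostin), and 6 integrin subunits, *Itga7*, *Itga9*, *Itgav*, *Itgb1*, *Itgb3* and *Itgb6*. They are 10 of the 31053 genes measured in both libraries and were taken by their symbols. *Tnc* and *Tnxb* are tenascins by family. *Coch* and *Postn* are matrix genes of other families. They were selected on family and known binding, at a time when their UMI counts per cell class in these libraries were already known, so the levels below are a description and nothing rests on a test.

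The data are single-cell RNA profiles of ear skin from wild type C57BL/6 mice, 10 weeks of age by the labels, which received imiquimod for 5 consecutive days. Imiquimod (IMQ) is a Toll-like receptor agonist that gives mice a psoriasis-like skin inflammation. Epidermis and dermis were parted with Dispase and each gave 1 droplet library of 3′ transcript ends, so no untreated skin and no second library of either tissue enters any comparison here. The study's methods describe a CD45+ sort of the dermal cells and no such sort of the epidermal cells, and they give another age than the labels, and the number of mice behind each library was not given in the sources used here. The study dealt with fibroblasts and skin nerves in psoriasiform inflammation and made these libraries to examine what altered nerves mean for immune cells. Here both libraries were used to ask which cells carry *Tnc* and which carry its receptors.

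Tenascin-C is a large multi-armed matrix glycoprotein that is scarce in resting adult skin and abundant below the epidermis of wounds and psoriatic plaques. Cells bind it through integrins, receptors built of 1 alpha and 1 beta subunit, of which *Itga9* with *Itgb1*, and *Itgav* with *Itgb1*, *Itgb3* or *Itgb6*, make known tenascin-C receptors. Periostin binds tenascin-C and *Itgav* integrins and is a matrix protein of the dermo-epidermal junction. Tenascin-X organizes collagen fibrils, and its loss causes a form of Ehlers-Danlos syndrome. Cochlin is best known from the inner ear. *Itga7* with *Itgb1* is a laminin receptor, and the study also counts this pair among the tenascin-C receptors of nerve cells.

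The stretches of DNA before the start sites of the 4 matrix genes are shown because these genes had their highest level in the same class of cells. Each line holds the 250 bases before a RefSeq start site in GRCm38.p6, 5′ to 3′ on the strand of the gene, with capitals for matches to any of 5 motifs on either strand. The motifs were TATAAA, the core of the TATA box, TGANTCA of AP-1, GGAATG of TEAD factors, CCAAT of the box of that name, and CAGAC of SMAD factors. *Tnc* lies at chr4:64047016-64047265 on the minus strand, *Postn* at chr3:54360857-54361106, *Tnxb* at chr17:34670285-34670534 and *Coch* at chr12:51593091-51593340, these 3 on the plus strand.
Tnc: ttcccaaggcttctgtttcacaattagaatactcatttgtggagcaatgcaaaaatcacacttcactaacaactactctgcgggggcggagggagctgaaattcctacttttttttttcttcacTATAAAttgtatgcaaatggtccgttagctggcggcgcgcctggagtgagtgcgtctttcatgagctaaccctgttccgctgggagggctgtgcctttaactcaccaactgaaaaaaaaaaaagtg
Postn: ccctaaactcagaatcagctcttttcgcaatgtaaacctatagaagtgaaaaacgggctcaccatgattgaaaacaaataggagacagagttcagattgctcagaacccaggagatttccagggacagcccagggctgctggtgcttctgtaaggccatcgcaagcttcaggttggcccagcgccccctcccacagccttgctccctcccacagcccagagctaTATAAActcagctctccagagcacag
Tnxb: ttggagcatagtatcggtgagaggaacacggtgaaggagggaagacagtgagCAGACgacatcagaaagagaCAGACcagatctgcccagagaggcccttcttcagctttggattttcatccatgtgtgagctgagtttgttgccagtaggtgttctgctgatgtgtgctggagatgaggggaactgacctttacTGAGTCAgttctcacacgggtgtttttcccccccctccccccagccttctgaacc
Coch: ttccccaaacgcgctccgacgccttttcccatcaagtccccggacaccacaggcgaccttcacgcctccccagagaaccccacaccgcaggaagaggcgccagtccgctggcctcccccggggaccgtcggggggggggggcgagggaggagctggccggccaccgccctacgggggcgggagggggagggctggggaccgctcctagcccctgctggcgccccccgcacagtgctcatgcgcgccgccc

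*Tnc* and *Postn* each held 1 TATAAA, which began 126 bases before the start site of *Tnc* and 26 bases before that of *Postn*. *Tnxb* held 1 TGANTCA that began 55 bases before its start site and 2 CAGAC, at 198 and 178 bases. *Coch* held none of these letters in the window and was the richest in G and C (74.8%, against 44.8% for *Tnc*, 52% for *Postn* and 52.4% for *Tnxb*). Of 32851 promoter windows of the same length, 12.4% held TATAAA, 6.75% TGANTCA, 12.6% GGAATG, 33.8% CCAAT and 42.2% CAGAC. A match is a description of the letters only. RefSeq windows were found for 8 of the 10 genes. *Tnc* and *Postn* have a second RefSeq start site each, which is not shown, and those windows each held 1 CAGAC, with 1 TATAAA in that of *Tnc* and 0 in that of *Postn*.

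The dermal library kept 4747 of 5376 barcodes (40392866 unique transcript molecules, UMIs) and the epidermal library 4173 of 5258 (105033363 UMIs), with medians of 7010 and 25918 UMIs per cell. The libraries shared 30 cell barcodes after filtering. Cells were put into classes by marker lists that hold none of the 10 genes, and 4180 dermal and 3750 epidermal cells were placed. Classes of at least 20 cells numbered 11 in the dermis and 9 in the epidermis. *Ptprc*, which encodes CD45, had a UMI in 3038 dermal cells (64.0%) and in 627 of the 4173 epidermal cells. The dermal classes were mostly immune, with 1173 monocyte-like, 987 macrophage-like, 620 neutrophil-like, 363 dendritic or Langerhans-like, 240 T-like, 224 basophil-like, 125 mast-like and 29 natural killer-like cells. The others were 343 fibroblast-like, 42 endothelial-like and 27 Schwann-like cells. In the epidermis, 2387 basal-like and 421 spinous-like keratinocytes stood beside 491 T-like and 236 dendritic or Langerhans-like cells. All further names of classes are used in this sense.

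Fibroblasts were led by their own markers, with a median of 180 UMIs of the fibroblast list per 10000 UMIs, against medians of 8.01 for the monocyte list, 6.47 for the dendritic list and 0 for the Schwann list. Among the 343 fibroblasts, 23 lay near the limit of the class and 21 scored high as doublets. Spinous keratinocytes had a median of 99.4 for their own list and 184 for the basal list. Of these 421 cells, 88 lay near the limit and 70.3% were in a cluster of that name. Upper follicle keratinocytes likewise had 63.7 for their own and 137 for the basal list. Basal and spinous values below are therefore those of gated classes and not of cleanly separated layers. Levels are given as CPM, the UMIs of a gene scaled to a class total of 1000000 UMIs, with the exact 95% Poisson interval in brackets. Every interval here covers counting error only, and cells of 1 library are not replicates of a mouse. Levels of different genes were not compared, because capture of 3′ ends differs between genes.

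*Tnc* (ENSMUSG00000028364, a protein-coding gene at chr4:63959785-64047015 of GRCm38, minus strand) was found mainly in dermal fibroblasts. They held 3463 of its 4036 dermal UMIs, or 85.8% (exact Clopper-Pearson interval 84.7 to 86.9%), while making up 7.23% of the cells and 10.2% of all UMIs. The methods' CD45+ sort bears on how many fibroblasts the library holds, so these shares are of the library and not of dermis. The level in fibroblasts was 838 CPM (811 to 867). Every other class was far lower, in the order Schwann cells with 33.9 CPM from 4 UMIs, neutrophils with 31.6 CPM (25.5 to 38.8), endothelial cells with 21.4 CPM (11.4 to 36.5), macrophages with 14.2 CPM and monocytes with 14.1 CPM. After fibroblasts, each neighbour in this order had an interval that overlapped the next, although the interval of neutrophils lay above those of macrophages and monocytes.

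Pooled immune cells of the dermis carried 14.6 CPM of *Tnc*, 57.3-fold (52.0 to 63.3) less than fibroblasts. A *Tnc* UMI was seen in 69.7% of fibroblasts (median 10269 UMIs per cell) and in 9.70% of the 3761 immune cells (median 7013 UMIs). At 1000 UMIs per cell, 35.7% of fibroblasts still had one. *Dcn*, which encodes the collagen-binding proteoglycan decorin and is a fibroblast marker, appeared at low level in the same immune cells. For each 1000 *Dcn* UMIs, fibroblasts had 73.4 *Tnc* UMIs (70.9 to 76.0), monocytes 68.4 (57.4 to 81.1), basophils 68.7, neutrophils 58.9 (47.1 to 72.8), macrophages 94.2 (79.2 to 111), dendritic or Langerhans cells 108 (79.4 to 144) and T cells 41.2 (20.3 to 74.9). The ratio of *Tnc* to *Dcn* was thus close to that of fibroblasts in monocytes and above it in macrophages and dendritic or Langerhans cells. In neutrophils and T cells the value was lower, but their intervals overlapped that of fibroblasts. *Dcn* is on the fibroblast marker list that placed cells. Its level in each class, and with it every ratio to *Dcn* here, was therefore partly set by the gate. The part of free RNA in the immune counts was not tested. Endothelial cells had the highest value, 382 *Tnc* UMIs per 1000 *Dcn* UMIs (185 to 743), from 13 *Tnc* and 34 *Dcn* UMIs in 42 cells. Per 1000 *Dcn* UMIs their *Coch* (382), *Tnxb* (265) and *Postn* (235) also exceeded those of fibroblasts (120, 3.77 and 49.3). The intervals of natural killer cells (133, 14.8 to 573), Schwann cells (88.9, 23.2 to 244) and mast cells (74.1, 8.54 to 295) overlapped the endothelial one.

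In the epidermis *Tnc* was sparse, with 550 UMIs against 4036 in the dermis although the library was deeper. Basal keratinocytes, the dividing layer that rests on the basement membrane, held 482 of these (87.6%) with 75.7% of all epidermal UMIs. Their level was 6.06 CPM (5.53 to 6.63), above the 1.09 CPM (0.564 to 1.91) of spinous keratinocytes. Spinous cells form the layer over basal ones, but the class of that name also carried basal markers. Epidermal immune cells held 6 *Tnc* UMIs, or 1.64 CPM, and the ratio of all keratinocytes to them was 3.27 (1.49 to 8.95). A *Tnc* UMI was seen in 15.5% of basal cells at a median of 32830 UMIs and in 0.701% of epidermal immune cells at a median of 2750 UMIs. At 1000 UMIs per cell the basal share was 0.594%, so the share depended strongly on depth. Another 5.45% of epidermal *Tnc* UMIs lay in 3 fibroblast-like cells, 29 of them in a single cell of 35471 UMIs.

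**Figure D1:**
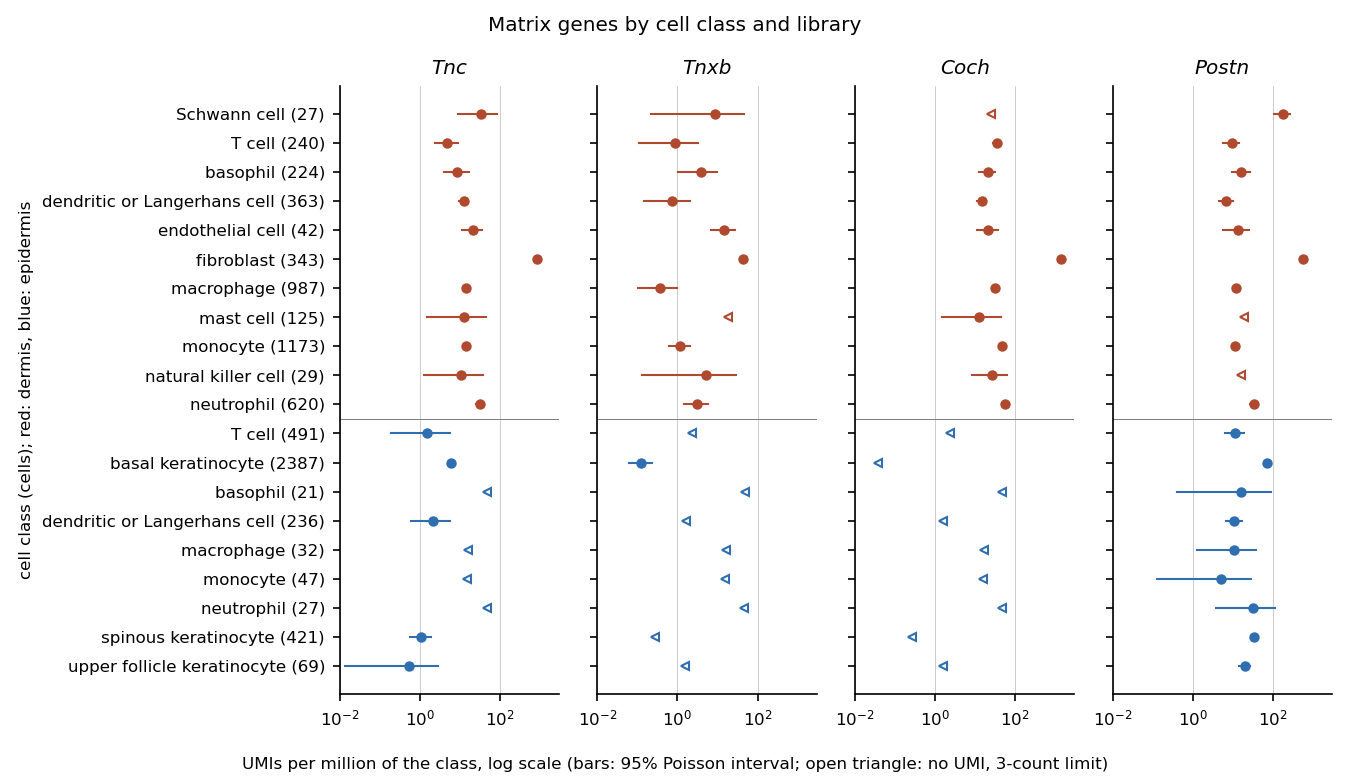
Level of the 4 matrix genes in each cell class (CPM, log scale), with dermal classes in red, epidermal classes in blue, bars for the 95% Poisson interval and open triangles for the 3-count limit where no UMI was seen. Fibroblasts are highest for all 4 genes (838 CPM for *Tnc*, 1370 for *Coch*, 563 for *Postn*, 43.1 for *Tnxb*), and basal keratinocytes reach 73.4 CPM for *Postn*.

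*Coch* (ENSMUSG00000020953, chr12:51593341-51605771) had 7083 dermal UMIs and 0 in the epidermis. Fibroblasts held 79.9% of them at 1370 CPM, 37.7-fold (35.4 to 40.2) above pooled immune cells at 36.3 CPM. Neutrophils followed with 55.6 CPM, monocytes with 46.4 CPM and T cells with 35.6 CPM. A *Coch* UMI was seen in 55.4% of fibroblasts and in 15.3% of dermal immune cells. For each 1000 *Dcn* UMIs, there were 120 *Coch* UMIs in fibroblasts, with the same limit that *Dcn* helped to place the cells. The other classes ran from 0 in Schwann cells and 74.1 in mast cells to 382 in endothelial cells, with 104 in neutrophils, 214 in macrophages and 300 in T cells. Of the 80 *Coch* UMIs in T cells, 34 lay in 1 cell. The 2387 basal keratinocytes together allow at most 0.0377 CPM at 3 counts.

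*Postn* (ENSMUSG00000027750, chr3:54361109-54391037) was the matrix gene with a level in both tissues. Fibroblasts held 79.8% of its 2914 dermal UMIs at 563 CPM (540 to 586). Schwann cells, which ensheath nerve fibres, followed with 178 CPM (110 to 272), from 21 UMIs in 7 of 27 cells. As 12 of these UMIs lay in 1 cell, this place in the order rests largely on that cell. Basal keratinocytes came next with 73.4 CPM (71.5 to 75.3) from 5832 UMIs, 88.9% of the epidermal total. None of these 3 classes overlapped the next class in the order. Epidermal neutrophils and basophils, with 2 and 1 *Postn* UMIs, had wide intervals that overlapped that of basal keratinocytes. The interval of the neutrophils (3.79 to 113) also overlapped that of Schwann cells. Spinous keratinocytes followed with 33.4 CPM (30 to 37) and epidermal immune cells had 11.2 CPM, a ratio of 6.03 (4.44 to 8.41) for all keratinocytes over immune cells. A *Postn* UMI was seen in 62.5% of basal cells and in 7.55% at 1000 UMIs per cell.

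*Tnxb* (ENSMUSG00000033327, chr17:34670535-34719815) was sparse, with 230 dermal and 11 epidermal UMIs. Fibroblasts held 77.4% of the dermal UMIs at 43.1 CPM (37.0 to 49.9). Endothelial cells had 14.8 CPM (6.76 to 28.1) from 9 UMIs and no other class exceeded 8.47 CPM. The remaining tenascin genes, *Tnn* and *Tnr*, had 9 and 0 UMIs in fibroblasts.

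Dermal fibroblasts were next set against all other placed dermal cells. Of 11541 genes with at least 50 UMIs, 17.9% were at least 2-fold higher in fibroblasts and 15.3% at least 2-fold lower. Of the 10 genes, 8 were above that minimum, and 6 of these were at least 2-fold higher and 0 lower (median log2 ratio 3.05). These were the 4 matrix genes, *Itgav* (ratio 2.23, 1.87 to 2.64) and *Itgb3* (1.97, 1.19 to 3.15), which stood at the limit with a log2 ratio of 1.0. *Itgb1* (1.28) and *Itga9* (1.19) were inside it. Since the levels were known when the genes were chosen, the count has no weight as support.

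Other matrix genes were higher in fibroblasts by similar factors. Of 12 relatives of tenascin-C among matricellular proteins, 11 were at least 2-fold higher and 1 lower (median log2 ratio 4.75), with *Sparc*, a collagen-binding protein, at 3399 against 140 CPM. The exception was *Tgfbi*, at 357 CPM in fibroblasts and 1353 CPM in the others. Of 7 enzymes that can cut tenascin-C, 4 were higher and 1 lower, with *Mmp3* (stromelysin) at 1416 against 32.2 CPM and *Mmp2* (a gelatinase) at 835 against 28 CPM. The lower one was *Mmp9*, a protease of neutrophils, at 21.1 against 64.2 CPM, named after its value was seen. *Mmp9* is on the neutrophil marker list that placed cells, so its direction was partly set by the classes. Integrins outside the 10 went mostly the other way, with 2 of 11 tested alpha subunits higher and 6 lower (median log2 ratio -1.59). Among them *Itga1*, a collagen receptor subunit, was at 62.7 CPM in fibroblasts and 11.2 CPM in the others. *Itga8*, a further tenascin-C receptor subunit named after its value was seen, was the other higher one, at 6.54 against 0.713 CPM. *Itgam*, a leukocyte subunit, was at 36.8 and 158 CPM. Of 4 other beta subunits, *Itgb5* (36.3 against 14.0 CPM) and *Itgb8* (4.84 against 1.09 CPM) were higher and the leukocyte subunits *Itgb2* and *Itgb7* lower.

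Other partners of tenascin-C showed both directions. Of 9 tested receptors and binding partners, 4 were at least 2-fold higher in fibroblasts and 1 lower (median log2 ratio 0.22). *Sdc4*, a proteoglycan that works with integrins, was at 570 against 114 CPM and *Fn1* (fibronectin) at 203 against 67.8 CPM. *Lgals3* (galectin-3) was at 2829 against 2431 CPM. Of 11 other ligands of the same integrins, 5 were higher and 1 lower (median 0.83), with *Fbn1* (fibrillin) at 164 against 4.25 CPM and *Spp1* (osteopontin) at 71.2 against 66.6 CPM. Of 12 genes of integrin activation, 4 were higher and 2 lower (median -0.25), with *Fermt2* (kindlin) at 106 against 7.38 CPM and *Tln1* (talin) at 83.5 against 148 CPM. Of 18 genes linked to the induction of tenascin-C, 9 were higher and 4 lower (median 1.36), with *Ccn2* (connective tissue growth factor) at 155 against 2.79 CPM and *Il1b* at 420 against 1455 CPM.

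The integrin subunits had other leading classes than the matrix genes. *Itgb1* (ENSMUSG00000025809, chr8:128685654-128733200), the common beta partner, was in all 20 classes. Schwann cells (373 CPM, 271 to 500), basophils (305 CPM, 272 to 341) and endothelial cells (288 CPM, 247 to 333) led and overlapped each other. Fibroblasts had 129 CPM (118 to 140) and basal keratinocytes 124 CPM (121 to 126), which overlapped as well. Spinous keratinocytes were low at 33.8 CPM (30.5 to 37.4), and neutrophils had 43.1 CPM. The fibroblast level was 1.35-fold (1.23 to 1.48) that of pooled dermal immune cells. By UMIs, macrophages held 27.0% of dermal *Itgb1* and fibroblasts 12.8%, and basal keratinocytes held 88.2% of epidermal *Itgb1*.

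*Itgav* (ENSMUSG00000027087, chr2:83724397-83806916), the alpha subunit shared by vitronectin-type receptors, was highest in Schwann cells at 152 CPM (90.4 to 241), from 18 UMIs. Fibroblasts followed with 42.1 CPM (36.1 to 48.9), then dermal T cells with 31.2 CPM (24.3 to 39.4), whose intervals overlapped. Macrophages had 22.9 CPM, basal keratinocytes 16.8 CPM, spinous keratinocytes 15.8 CPM and monocytes 15.6 CPM. In keratinocytes as a whole *Itgav* was 1.15-fold (0.871 to 1.54) the level of epidermal immune cells, an interval that includes no difference.

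*Itga9* (ENSMUSG00000039115, chr9:118606690-118901003), the alpha subunit of a tenascin-C receptor, was a gene of dermal cells, with 268 UMIs there and 6 in the epidermis. Macrophages held 57.8% of the dermal UMIs at 14.6 CPM (12.4 to 17.1), above monocytes at 2.46 CPM. Mast cells (37.6 CPM, 13.8 to 81.7, from 6 UMIs) and endothelial cells (24.6 CPM, 13.8 to 40.7, from 15 UMIs) ranked higher, and all 3 intervals overlapped. Fibroblasts had 7.99 CPM (5.50 to 11.2), a ratio of 1.26 (0.842 to 1.82) to pooled immune cells. Keratinocytes of all classes held 5 *Itga9* UMIs, or 0.0541 CPM.

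*Itga7* (ENSMUSG00000025348, chr10:128933818-128958282) was a gene of keratinocytes. The epidermis had 714 UMIs and the dermis 25. Basal keratinocytes had 7.77 CPM (7.17 to 8.41), spinous keratinocytes 2.82 CPM (1.91 to 4.0) and epidermal immune cells 1.91 CPM. The level of keratinocytes over epidermal immune cells was 3.75-fold (1.81 to 9.36). Schwann cells showed 16.9 CPM, from 2 UMIs in 1 cell.

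*Itgb6* (ENSMUSG00000026971, chr2:60598292-60722643, minus strand), an epithelial partner of *Itgav*, had 296 epidermal UMIs and 1 in the dermis. Its level was 3.01 CPM (2.64 to 3.41) in basal keratinocytes and 2.0 CPM (1.25 to 3.03) in spinous keratinocytes, which overlapped. A UMI was seen in 8.71% of basal cells. *Itgb3* (ENSMUSG00000020689, chr11:104608000-104670476), a partner of *Itgav* on endothelium, had 142 dermal UMIs and 6 in the epidermis. Endothelial cells had 14.8 CPM (from 9 UMIs), basophils 9.71 CPM, T cells 6.24 CPM and fibroblasts 5.57 CPM (3.53 to 8.35). In basal keratinocytes 1 UMI was found.

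**Figure D2:**
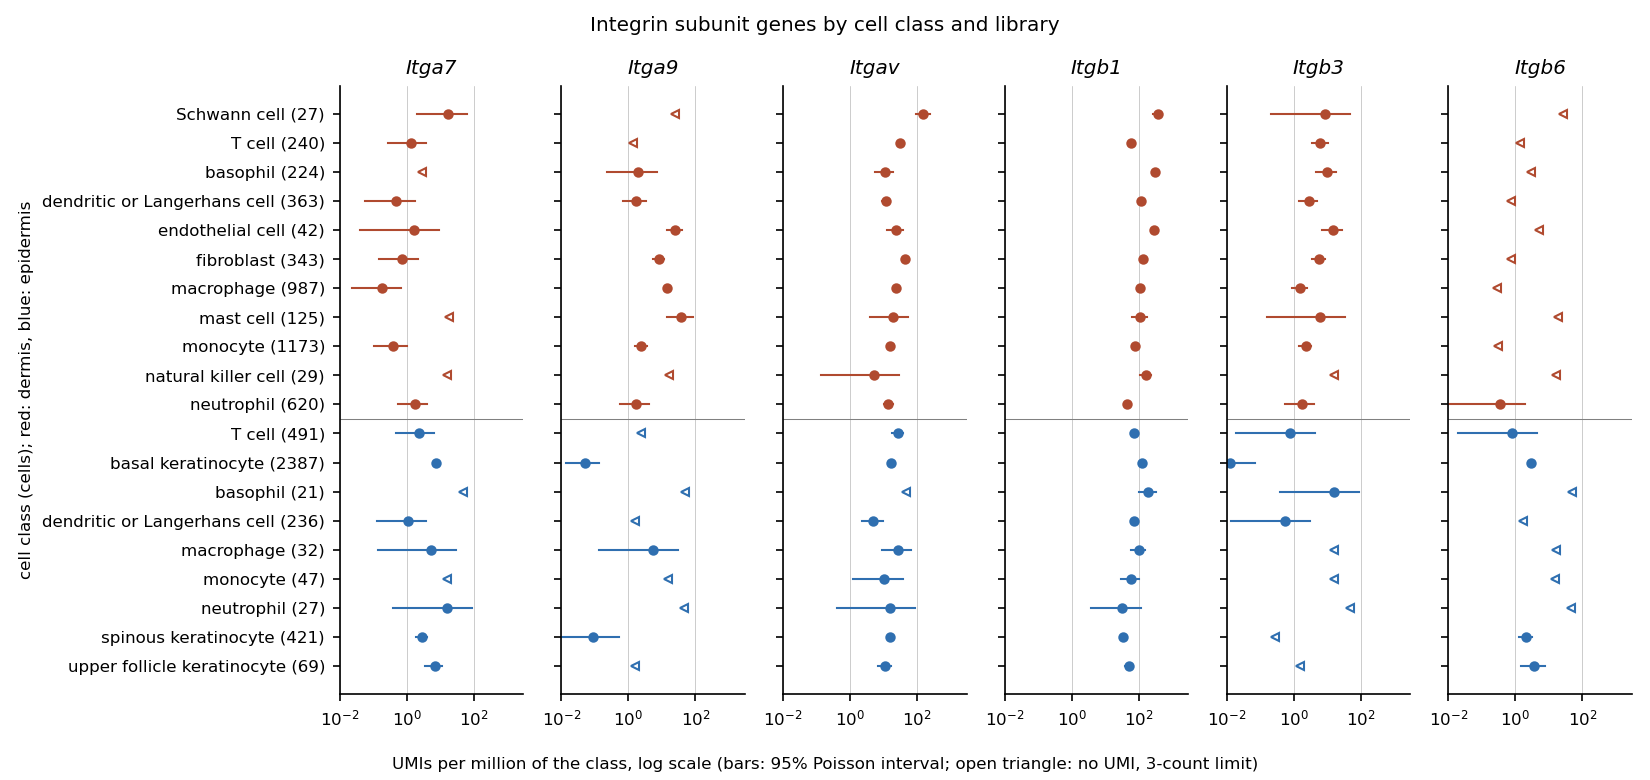
Level of the 6 integrin subunits in each cell class (CPM, log scale), with dermal classes in red, epidermal classes in blue, bars for the 95% Poisson interval and open triangles for the 3-count limit where no UMI was seen. *Itgb1* is present throughout (33.8 CPM in spinous to 373 CPM in Schwann cells among the classes named in the text), whereas *Itga9* has 268 dermal and 6 epidermal UMIs and *Itga7* and *Itgb6* mark keratinocytes (7.77 and 3.01 CPM in basal cells).

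A receptor needs both subunits in 1 cell. Without thinning, *Itgav* and *Itgb1* were seen together in 37.0% of basal keratinocytes, 29.2% of fibroblasts (24.4 to 34.3%) and 14.1% of macrophages. The shares expected from the single shares, were the subunits independent, were 35.1%, 26.8% and 11.3%. Cells of a class differ in depth, so these expected shares are no baseline at equal depth. *Itga9* with *Itgb1* was seen in 9.02% of macrophages and 5.83% of fibroblasts, where 7.22% and 4.30% would follow from the single shares. *Itga7* with *Itgb1* was seen in 19.4% of basal keratinocytes (17.5% if independent) and *Itgav* with *Itgb6* in 4.78% (3.52%). *Itgav* with *Itgb3* was seen in 2.92% of fibroblasts (1.89%). In Schwann cells *Itgav* with *Itgb1* was seen in 40.7% (22.4 to 61.2%), at a median of 4052 UMIs. At 1000 UMIs per cell these shares shrank to 0.297% of basal keratinocytes, 0.601% of fibroblasts (0.0728 to 2.15%) and 0.717% of macrophages for *Itgav* with *Itgb1*. Independent subunits would give 0.208%, 0.530% and 0.286% there. The intervals of these 3 classes overlapped at that depth, while that of Schwann cells (0.946 to 25.1%, 2 of 26 cells) lay above that of basal keratinocytes (0.119 to 0.611%). This did not hold at 2000 UMIs. The share was then 4% of Schwann cells (0.101 to 20.4%, 1 of 25 cells) and 0.897% of basal keratinocytes (0.556 to 1.37%), with overlapping intervals. Independent subunits would give 12.3% and 0.703%. Fibroblasts had 2.45% at this depth, where 2.83% would follow, and macrophages 1.49%, where 0.970% would follow.

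Classes found in both tissues allowed a look at dermal against epidermal cells, with 1 library each, so that tissue and library cannot be told apart. T cells had 31.2 CPM of *Itgav* in the dermis and 26.2 CPM in the epidermis (ratio 1.19, 0.779 to 1.85). *Itgb1* was at 56.1 and 71.0 CPM in these T cells (ratio 0.791, 0.600 to 1.05). Both intervals include no difference. Taken as a mean over cells, the *Itgb1* ratio turned to 1.19. Dendritic or Langerhans cells had 112 CPM of *Itgb1* in the dermis and 70.9 CPM in the epidermis (1.59, 1.30 to 1.94), and 11.7 and 4.87 CPM of *Itgav* (2.41, 1.17 to 5.58). The class joins dendritic and Langerhans cells, whose mixture in each tissue was not separated.

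Within fibroblasts *Tnc* varied widely. Of 343 cells, 104 had no *Tnc* UMI, 35 had 1, 99 had 2 to 9, 95 had 10 to 49 and 10 had 50 or more, up to 200. The 10 richest cells held 23.6% of the *Tnc* UMIs. *Coch* was more uneven, with 153 cells at 0, 29 cells at 50 or more, a maximum of 346 and 39.7% of UMIs in 10 cells. *Postn* was more even, with 97 cells at 0, 3 cells at 50 or more, a maximum of 57 and 17.4% in 10 cells.

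*Tnc* was seen in 74.7% (67.9 to 80.7%) of the 190 fibroblasts with a *Coch* UMI and in 63.4% (55.2 to 71.0%) of the 153 without. After thinning to 2000 UMIs the shares were 41.5% (32.7 to 50.7%) of 123 and 50.7% (43.6 to 57.8%) of 203, so the order turned with depth and the intervals overlapped. With *Postn* the shares were 79.7% of cells with it and 44.3% of cells without, and after thinning 52.0% (44.3 to 59.7%) and 41.9% (34.1 to 50.1%). With *Tnxb* they were 81.4% and 64.7%, and 44.4% and 47.5% after thinning. At equal depth no matrix gene separated cells with and without *Tnc* beyond the intervals.

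**Figure D3:**
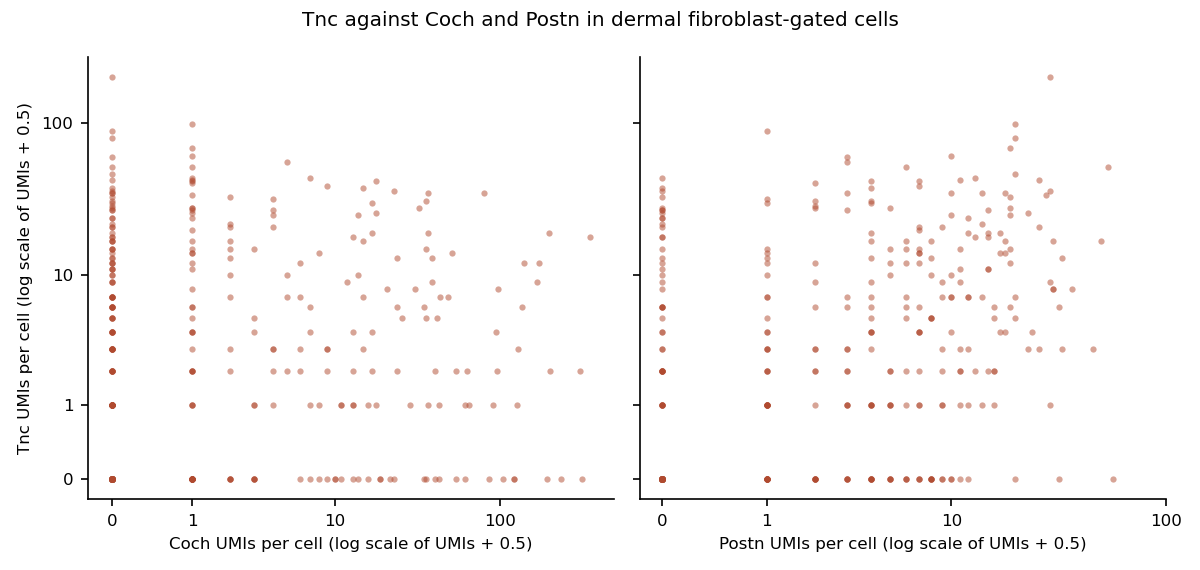
*Tnc* UMIs per cell (vertical axis) against *Coch* (left) and *Postn* UMIs per cell (right) in 343 dermal fibroblasts, on log scales of UMIs + 0.5, with 1 point per cell. The richest *Tnc* cell (200 UMIs) had no *Coch* UMI, and cells rich in *Coch* (up to 346 UMIs) spread from 0 to over 10 *Tnc* UMIs.

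The 239 fibroblasts with a *Tnc* UMI were then compared with the 104 without. Their median depths were 11873 and 6948 UMIs, so the groups also differ in depth. Of 6350 genes with at least 50 UMIs, 2.33% were at least 2-fold higher in *Tnc*+ cells and 4.57% at least 2-fold lower, with a median log2 ratio over all genes of -0.10. Of the other 9 genes 5 were above the minimum and none crossed 2-fold in either direction (median log2 ratio 0.16). *Postn* was at 607 against 390 CPM (ratio 1.56, 1.38 to 1.76) and *Tnxb* at 46.8 against 28.6 CPM (1.63, 1.06 to 2.63). *Coch* was lower in *Tnc*+ cells, at 1216 against 1974 CPM (0.616, 0.582 to 0.653). *Itgb1* was at 121 against 160 CPM (0.758, 0.622 to 0.929) and *Itgav* at 43.1 against 38.2 CPM (1.13, 0.766 to 1.71). The *Tnxb* value turned to a log2 ratio of -0.040, from 0.68, with cells thinned to 2000 UMIs before grouping. Without the 10 cells richest in *Coch* the *Coch* levels were 773 and 1133 CPM.

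Some *Tnc*- cells carried genes known from cartilage, which the ear holds. Of the 10 genes lowest in *Tnc*+ against *Tnc*- cells, *Comp*, *Ucma*, *Chad*, *Cnmd*, *Cilp2* and *Mia* are known from cartilage. *Comp*, a cartilage matrix protein, was at 9.11 CPM in *Tnc*+ and 417 CPM in *Tnc*- cells. The others were *Gpha2*, *Clu*, *Fxyd3* and *Myoc*. At least 3 of 6 cartilage genes, picked after these values were seen, were found in 2 of 239 *Tnc*+ cells and 14 of 104 *Tnc*- cells (13.5%). These 16 cells held 3 *Tnc* UMIs (14.9 CPM, against 880 CPM in the rest). The genes were picked from this same contrast, and *Tnc*- cells hold no *Tnc* UMI by definition. Both the counts of cells and these *Tnc* levels were thus largely set by the choice and carry no weight as support. Without them the genes at least 2-fold lower numbered 171 in place of 290, *Coch* went to a log2 ratio of -0.98 and *Postn* to 0.39. *Comp*, seen in 6 *Tnc*+ and 22 *Tnc*- cells in all, was still lower without them (log2 ratio -5.86), as was *Chad* (-2.56). *Ucma*, *Cnmd*, *Cilp2* and *Mia* fell under the minimum of 50 UMIs. Values without these 16 cells are thus not free of cartilage genes.

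By list, enzymes that can cut tenascin-C held 2 of 5 tested genes at least 2-fold higher and 0 lower (median log2 ratio 0.45). Over all 6350 genes the shares were 2.33% and 4.57%. *Mmp3* of this list was at 1666 against 434 CPM (ratio 3.84, 3.45 to 4.28) and *Adamts4*, an aggrecanase, at 36.7 against 13.1 CPM (2.80, 1.51 to 5.76). *Mmp14*, a membrane-bound protease, was at 516 against 378 CPM and *Mmp2* at 822 against 889 CPM. The *Mmp3* log2 ratio of 1.94 became 1.07 with cells thinned to 2000 UMIs and 1.69 without the cartilage-gene cells.

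Of 8 tested genes of axon guidance and nerve growth, 1 was higher and 0 lower. This was *Cxcl12*, a chemokine of stromal cells, at 669 against 192 CPM (3.49, 2.97 to 4.12). *Slit3*, a guidance ligand, was at 85.7 against 47.7 CPM (1.80, 1.29 to 2.57) and *Ntn1* (netrin) at 59.8 against 44.1 CPM (1.36, 0.950 to 1.98). *Ntn1* is also on the list of papillary fibroblasts, the fibroblasts under the epidermis, of which 5 were tested and 0 crossed 2-fold (median 0.42), with *Col23a1* at 70.2 against 40.5 CPM. Of 7 reticular fibroblast genes, which belong to the deep dermis, 0 crossed 2-fold (median -0.11). Over all 6350 genes 2.33% were higher and 4.57% lower, so counts of 0 in lists this short are near that share.

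Of 15 tested genes linked to the induction of tenascin-C, 0 were at least 2-fold higher in *Tnc*+ cells and 3 lower (median log2 ratio -0.35). Among all 6350 genes 2.33% were higher and 4.57% lower, so 0 higher of 15 is near the share of all genes. *Ccn2* was at 51.9 against 562 CPM (0.0924, 0.0771 to 0.110) and *Ccn1*, its relative, at 275 against 550 CPM (0.50, 0.446 to 0.560). The remaining one was *Tgfb3*, a growth factor named after its value was seen, at 10.9 against 50.1 CPM. *Egr1*, an immediate early gene, was at 136 against 247 CPM and *Il1b* at 403 against 488 CPM. The stress list moved beside them, with 2 of 5 genes lower and a summed level of 3311 against 5342 CPM, and its part in these values was not tested. All of these values include the cartilage-gene cells, 14 of the 104 *Tnc*- cells, and none is given without them.

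Of 12 matricellular relatives, 1 was higher and 3 lower (median -0.69). The shares of all 6350 genes were 2.33% and 4.57%. *Sparc* was at 2958 against 5130 CPM, *Aspn*, a collagen-binding proteoglycan, at 199 against 493 CPM and *Smoc2* at 227 against 401 CPM, while *Tgfbi* was at 389 against 234 CPM. *Thbs2*, a thrombospondin, was 7.38-fold higher (3.32 to 20.4) and was also among the 10 largest ratios. The other lower ones, *Ogn* (osteoglycin, 55.0 against 200 CPM) and *Thbs4*, were named after their values were seen. *Thbs4* had a log2 ratio of -2.40 that turned to 0.18 without the cartilage-gene cells. All other levels and ratios of this paragraph include those cells. Among other ligands of the same integrins 0 of 9 were higher and 2 lower, *Spp1* at 53.1 against 142 CPM and *Thbs1* at 74.7 against 228 CPM.

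No gene crossed 2-fold among 4 other alpha subunits, 3 other beta subunits and 7 other receptors and partners of tenascin-C. The same held for 10 genes of integrin activation and adhesion signalling. Medians were 0.37, 0.19, -0.02 and -0.14 in this order. As 2.33% of all 6350 genes were at least 2-fold higher and 4.57% lower, 0 in lists this short is near that share. *Itga1* was at 67.4 against 44.1 CPM and *Itgb5*, a further partner of *Itgav*, at 31.0 against 57.3 CPM. *Sdc4* was at 535 against 707 CPM and *Fn1* at 203 against 205 CPM. Of 3 tested genes of the follicle papilla or sheath, 0 were higher and 1 lower, *Acta2* at 17.3 against 42.9 CPM.

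**Figure D4:**
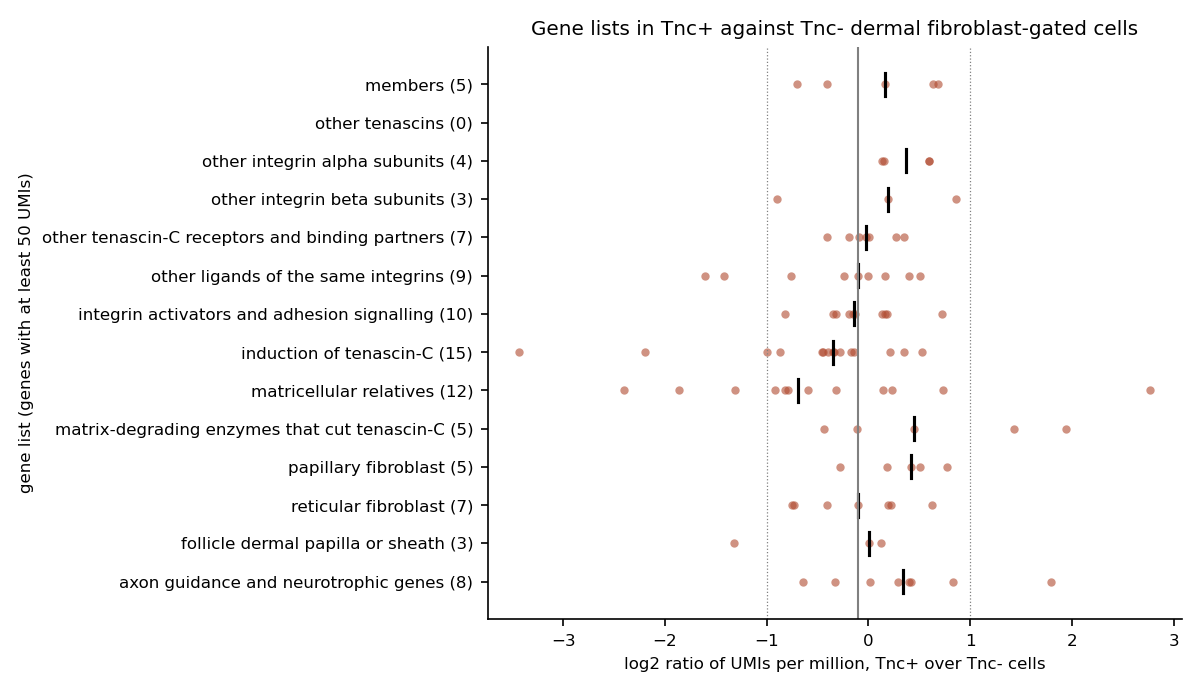
Log2 ratio of CPM in *Tnc*+ over *Tnc*- dermal fibroblasts (horizontal axis) for each gene list (vertical axis, with the number of genes of at least 50 UMIs). Points are genes, black ticks the median of a list, the grey line the median of all 6350 genes (-0.10) and dotted lines 2-fold. The matricellular list has the lowest median (-0.69), the protease list the highest (0.45), and *Ccn2* is the point farthest to the left. The ratios drawn include the cartilage-gene cells.

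The 10 genes with the largest ratio in *Tnc*+ fibroblasts were *Reg3g*, *Epsti1*, *Sectm1a*, *Il19*, *Ccl17*, *Grem1*, *Thbs2*, *Il1rl1*, *3300005D01Rik* and *Cdk20*. *Reg3g*, an antimicrobial lectin of inflamed epithelium, was at 234 against 4.77 CPM, seen in 25 of 239 cells with 25.2% of its UMIs in 1 cell. *Il19*, a cytokine of psoriatic skin, was seen in 61 *Tnc*+ and 3 *Tnc*- cells, at 90.8 against 7.16 CPM. *Ccl17*, a chemokine of dendritic cells, had 48.1% of its UMIs in 1 cell. *Grem1*, a BMP antagonist, was seen in 29 and 3 cells. Markers of other classes moved with this contrast in both directions. Summed levels were lower in *Tnc*+ cells for the basophil list (37.4 against 103 CPM) and the mast list (66.8 against 90.7 CPM). The natural killer (6.68 against 32.2 CPM) and outer root sheath lists (89.6 against 210 CPM) were lower too. Those of the monocyte (1454 against 1044 CPM) and macrophage lists (508 against 463 CPM) were higher. All 3 tested genes of the 15-gene dendritic or Langerhans list were at least 2-fold higher (summed 2729 against 1159 CPM, with *Cd74* the most abundant and *Cd207* at 6 and 0 UMIs), and so were 3 of 5 tested T-cell genes of 9 (summed 193 against 79.9 CPM). Their part in the ratios was not tested, and without the high doublet scores 116 genes were at least 2-fold higher and 255 lower, in place of 148 and 290.

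Basal keratinocytes gave a second contrast, added after the data were seen. The 369 cells with a *Tnc* UMI (median 39923 UMIs) were compared with 2018 without (31663 UMIs). Of 11303 genes, 0.664% were at least 2-fold higher and 1.37% at least 2-fold lower in *Tnc*+ cells (median log2 ratio of all genes -0.04). Of 5 tested among the other 9 genes, 1 was at least 2-fold higher and 0 lower (median 0.65). This was *Itgb6*, at 5.14 against 2.50 CPM (ratio 2.05, 1.54 to 2.70). *Itga7* was at 11.7 against 6.84 CPM (1.71, 1.43 to 2.04), *Itgb1* at 175 against 112 CPM (1.56, 1.5 to 1.64) and *Itgav* at 19.8 against 16.1 CPM (1.23, 1.07 to 1.39). *Postn* went the other way, at 44.1 against 80.3 CPM (0.549, 0.506 to 0.596). The differences of *Itga7*, *Itgb1*, *Itgav* and *Postn* were smaller than 2-fold.

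Of the integrins outside the 10, 7 alpha subunits were tested in basal keratinocytes and 0 crossed 2-fold, with a median of 0.48. Over all 11303 genes 0.664% were higher and 1.37% lower, so 0 of 7 is near that share. *Itga6*, the hemidesmosome subunit, was at 277 against 216 CPM, *Itga3* at 70.6 against 50.6 CPM, *Itga2* at 12.1 against 6.36 CPM (1.90, 1.59 to 2.27) and *Itga5* at 6.72 against 4.57 CPM. *Itgb4*, the partner of *Itga6*, was at 115 against 96.1 CPM (1.19, 1.13 to 1.26). Of 5 tested enzymes that cut tenascin-C, 2 were higher and 1 lower. *Mmp3* was at 130 against 50.7 CPM (2.56, 2.42 to 2.71), *Mmp9* at 4.67 against 1.49 CPM (3.13), *Mmp13* at 5.86 against 3.0 CPM (1.95) and *Mmp2* at 3.36 against 9.30 CPM (0.361). *Mmp3* was thus higher with *Tnc* in both classes, and *Mmp9* was named after its values were seen.

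These groups of keratinocytes differed in depth. With cells thinned to 10000 UMIs before grouping, 116 were *Tnc*+ and 2095 *Tnc*-. The log2 ratios were then -0.41 for *Postn*, 0.85 for *Itga7*, 0.67 for *Itgb1* and 1.16 for *Itgb6*, and *Itgav* turned to -0.12. With at least 2 *Tnc* UMIs (82 cells) they were -1.46 for *Postn*, 1.02 for *Itgb1* and 1.49 for *Itgb6*. These 82 cells had a median of 48943.5 UMIs, against 31663 in *Tnc*- cells. The gap in depth was thus wider than in the main contrast, so this setting is no check on depth. *Itga7* and *Itgav* are not given for it. Fibroblast markers summed to 0.527 CPM in *Tnc*+ and 0.902 CPM in *Tnc*- basal cells. Markers of the spinous list summed to 3475 and 3195 CPM, with 0 of 7 tested past 2-fold (median log2 ratio -0.01). Those of the outer root sheath list summed to 1885 and 1081 CPM, with 1 of 4 tested at least 2-fold higher (median 0.17). The part of these lists was not tested.

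**Figure D5:**
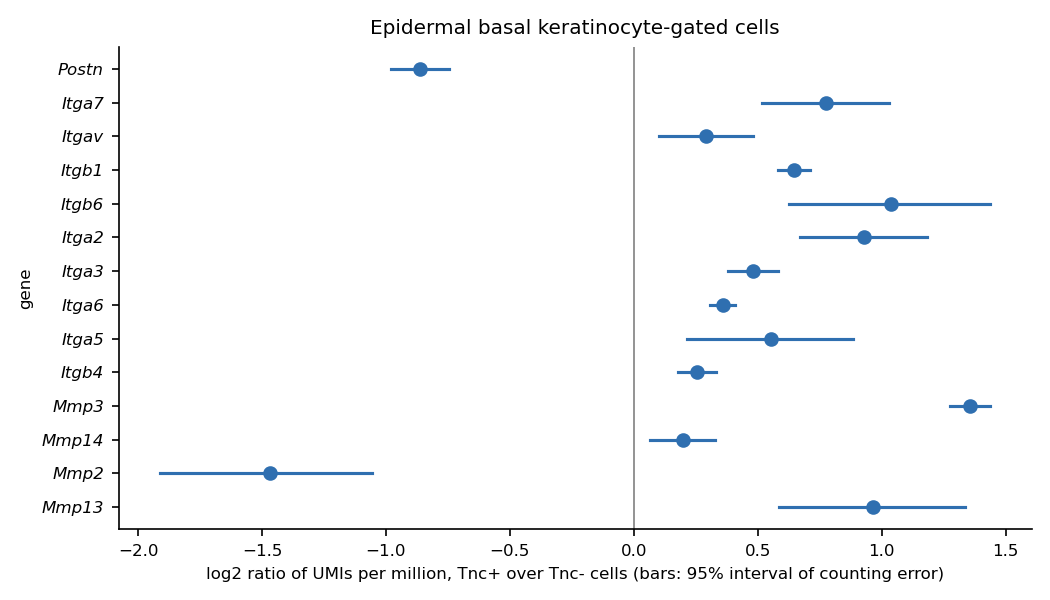
Log2 ratio of CPM in *Tnc*+ over *Tnc*- basal keratinocytes (horizontal axis) for integrin, periostin and protease genes (vertical axis), with 95% intervals of counting error. *Itga7*, *Itgav*, *Itgb1* and *Itgb6* lie above 0 (ratios 1.71, 1.23, 1.56 and 2.05, *Itgav* turning to a log2 ratio of -0.12 after thinning), *Mmp3* farthest above of the genes drawn (2.56, *Mmp9* at 3.13 is not drawn), and *Postn* and *Mmp2* below (0.549 and 0.361).

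Across the 20 classes, 12664 genes were ranked by the likeness of their profile to *Tnc* (Pearson r of log2(CPM + 1), a description over classes that share 2 libraries and their depths). The 10 most like *Tnc* were *Gpnmb* (0.954), *Col1a1* (0.947), *Col6a2* (0.943), *Bgn* (0.937), *Eln* (0.929), *Col3a1* (0.928), *Col1a2* (0.926), *Cpxm1* (0.924), *Cxcl12* (0.924) and *Dcn* (0.921). Most encode collagens, elastin and small proteoglycans, and fibroblasts held between 61.6% (*Gpnmb*) and 89.8% (*Col1a1*) of their dermal UMIs. *Col1a1*, *Col3a1*, *Col1a2* and *Dcn* were on the marker list that defined fibroblasts. Their high level in that class, and so their likeness to a gene high there, was set by the gate. With log2(CPM + 10) 3 of these 10 stayed among the first 10. *Tnxb* ranked 54 (0.840) and *Coch* 69 (0.830), whereas *Postn* ranked 2467 (0.398), with its second level in keratinocytes. The integrins were less like it, from 0.480 for *Itga9* through 0.460 for *Itgav* and 0.409 for *Itgb1* to -0.184 for *Itga7* and -0.245 for *Itgb6*.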

How the data were processed

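The authors deposited UMI counts per gene and cell barcode for 1 dermal and 1 epidermal library. Their processing notes name CASAVA, Cell Ranger and mm10, and the matrix header gives version 3.0.2. From there, barcodes with under 200 genes or over 10% mitochondrial UMIs were dropped (13 and 628 dermal, 0 and 1085 epidermal). Marker genes, scaled at their 90th percentile, gave each cell a score per list. The best list with at least 3 markers and a margin of 0.05 named the class, and these limits were set after the scores were seen. UMIs were summed per class. With 1 library per tissue no test was run. Intervals (95%) are Poisson, Clopper-Pearson or conditional binomial. UMIs count molecules, but of 1 library only. Ratios used genes with at least 50 UMIs, a pseudocount of 0.5 UMI for log2 values and a 2-fold limit, and a level of 0 allows 3 counts. Thinning was to 1000 or 2000 UMIs. Scrublet's automatic limit marked 3 dermal and 38 epidermal cells, so the 180 and 139 cells of highest score were removed as an alternative only. Named genes were the 10 genes, at most 4 per list by UMIs, the 10 most like *Tnc* and the 10 largest and smallest ratios. Others are said to be named after their values were seen. The members and lists were chosen with earlier results of these data known. Alternatives were stricter cell filters, doublet removal, a stricter gate, Leiden clusters, means over cells, other UMI minimums, pseudocounts and depths. In simulated data of the fibroblast contrast (6178 genes) all 100 genes raised 4-fold were called, 0.897% of unchanged genes passed 2-fold and 96.5% of intervals covered the truth. The simulated totals were Poisson draws per gene and group, the model behind the intervals, with no spread between cells. They check the calculation only and cannot show how the intervals hold for counts that differ between cells or mice. Python 3.11.15, numpy 2.4.6, scipy 1.17.1, pandas 2.3.3 and scanpy 1.11.5 were used.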

Additional observations from a re-analysis of the deposited data

How the results depend on the processing

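No paired analysis was possible because dermis and epidermis gave 1 library each, so no value here has an error between mice. The fibroblast share of dermal *Tnc* UMIs (85.8%) was 87.3% with doublets removed, 88.2% with clusters named from the markers and 81.1% with a stricter gate. The *Tnc* level in fibroblasts (838 CPM) was 880 CPM with at most 5000 genes and 5% mitochondrial UMIs, 892 CPM with doublets removed, 725 CPM with clusters, 910 CPM with a stricter gate and 741 CPM as a mean over cells. The dermal over epidermal *Itgb1* ratio of T cells (0.791) reversed to 1.19 as a mean over cells. The share of fibroblasts with *Itgav* and *Itgb1* (0.601% at 1000 UMIs) was 2.45% at 2000 UMIs and 29.2% without thinning. Genes at least 2-fold higher and lower in *Tnc*+ fibroblasts (148 and 290) numbered 13 and 47 with cells thinned to 2000 UMIs, 355 and 753 with a minimum of 20 UMIs and 941 and 2752 with none, and 171 were lower without the cartilage-gene cells, an alternative chosen after seeing the data. Of the 10 genes most like *Tnc*, 3 stayed with log2(CPM + 10). Log2 ratios that reversed were *Tnxb* in fibroblasts (-0.040, thinned), *Crabp1* (-0.16) and *Thbs4* (0.18) without the cartilage-gene cells, and *Itgav* in basal keratinocytes (-0.12, thinned). The causes were not tested, except that thinning and minimums change the number of genes tested. Of all recomputed values 207 stayed within their interval, 77 moved outside it and 5 reversed. The main results were less stable than this total. Of their recomputed values 13 stayed within their interval, 17 moved outside it and 1 reversed. A further 3 stayed and 1 moved in comparisons added after the data were seen. For the main results, more values thus moved or reversed than stayed. Depth limits *Itga9*, *Itgb3*, *Itgb6* and *Tnxb* most, with few UMIs in most classes.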

Other observations

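*Tnc*+ basal keratinocytes differed from *Tnc*- cells in genes outside the lists, which were looked at after the values were seen. The 10 largest ratios included *Arg1* (arginase, 3.82 against 0.358 CPM, ratio 10.7, 6.49 to 18.1), *Mmp10* (another stromelysin, 5.53 against 0.980 CPM), *Hmga2* (a chromatin protein of growing cells, 21.5 against 7.11 CPM) and *Csf3* (the neutrophil growth factor, 35.5 against 12 CPM). The haemoglobin genes *Hba-a1*, *Hba-a2* and *Hbb-bs* were among the 10 smallest, with *Hbb-bs* at 0.395 against 14.7 CPM. How the UMIs of these genes were spread over cells is not given. The groups differed in depth (medians of 39923 and 31663 UMIs), and its part in these ratios was not tested. Upper follicle keratinocytes, 69 cells of which 17.4% lay in a cluster of that name, held 1 *Tnc* UMI.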
